A study of Rattus norvegicus with 30 samples.

Results

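Cholesterol synthesis was followed in the lungs of rats with severe acute pancreatitis (SAP) through 8 genes that were chosen by symbol: Hmgcs1, Idi1, Fdft1, Sqle, Lss, Sc5d, Dhcr7 and Insig1. All 8 were found among the 22914 genes of the read count table, and all 8 passed the filter on low counts that left 15934 genes for testing. The set was put together as genes of cholesterol synthesis and uptake, but 7 of the 8 encode enzymes of synthesis, Insig1 encodes a regulator of the pathway, and none encodes an uptake receptor. Uptake genes are described with the wider pathway.

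Lung RNA of male Sprague Dawley rats, 8 weeks old, was sequenced in 30 libraries, 3 for each of 5 treatments at 6 and 24 h after surgery. SAP rats received a retrograde infusion of 5.0% sodium taurocholate into the biliopancreatic duct, Con rats received sterile saline by the same route, and in Sham rats the pancreas was only turned slightly. DEX rats had SAP and intravenous dexamethasone, a synthetic glucocorticoid, at 10 mg/kg, and Emo rats had SAP and emodin, a plant anthraquinone, given into the stomach; the labels state 10 mg/kg of emodin in one place and 40 mg/kg in another. Drugs were due at 2 and 12 h, so that rats sampled at 6 h had received the first dose alone. The other groups received the vehicles, saline by vein and carboxymethylcellulose by stomach. By the study's methods, the lungs of 3 rats in each group were sequenced, so that the 3 libraries of a group stand for separate rats.

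Cells make cholesterol from acetyl-CoA in a long chain of reactions, and when membrane cholesterol of the endoplasmic reticulum falls, SCAP escorts the transcription factor SREBP-2 to the Golgi, where proteolysis releases it to switch on the genes of synthesis and uptake. INSIG proteins hold SCAP back when sterols are plentiful, and Insig1 is itself an SREBP target. In the lung, alveolar type 2 cells use cholesterol, taken up or newly made, in surfactant.

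The libraries held 16813949 to 34692306 reads on genes, and the 8 genes received between 101 reads (Idi1) and 7014 reads (Insig1) in a library. By the study's mapping summary, every Con and Sham library had a larger share of uniquely mapped reads than every SAP, DEX and Emo library. Comparisons of SAP, DEX or Emo with Sham or Con therefore carry this difference as well, and its part in them was not tested. Surfactant genes were abundant: 8 alveolar type 2 cell markers summed to 25200 to 35500 FPKM (fragments per kilobase of transcript, scaled to the depth of the library) in the Sham-24h libraries. Of 5 glucocorticoid target genes, 3 were up-regulated in DEX-24h vs Sham-24h: Sgk1, Dusp1 and Fkbp5, a co-chaperone of the glucocorticoid receptor. There 6.97% of all genes tested were called and 2.7% were called higher. In DEX-24h vs SAP-24h 1 of the 5 was called, Sgk1, where 7.71% of all genes were called and 2.99% were called higher. Sgk1 alone was also called in DEX-6h vs SAP-6h, where 0.979% of all genes were. The 5 together summed to 652 to 778 FPKM in DEX-24h against 189 to 355 FPKM in Sham-24h. DEX-24h replicate 3 was the highest of all 30 libraries for each of the 8 cholesterol genes, with 28533340 reads on genes against 33095751 and 28107243 in the other DEX-24h libraries. The counts of the 8 genes in the DEX-24h comparisons are therefore given with and without it.

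In FPKM, a level per transcript length, Insig1 was the most abundant of the 8 (mean of 30 libraries 34.2), followed by Fdft1 (13.6), Hmgcs1 (8.68), Sqle (7.30), Lss (5.25), Sc5d (4.63), Idi1 (4.46) and Dhcr7 (2.54). Idi1 varied most between libraries, from 1.12 to 16.02 FPKM, a 14.3-fold range. DEX-24h was the group with the highest mean for all 8 genes, and Emo-6h the lowest for 6 of them. For Hmgcs1, Idi1, Fdft1, Sqle, Lss and Sc5d, all 3 DEX-24h libraries lay above all 27 others. For Insig1 the lowest DEX-24h library exceeded 24 of the 27 others, and for Dhcr7 it exceeded 23.

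**Figure D1:**
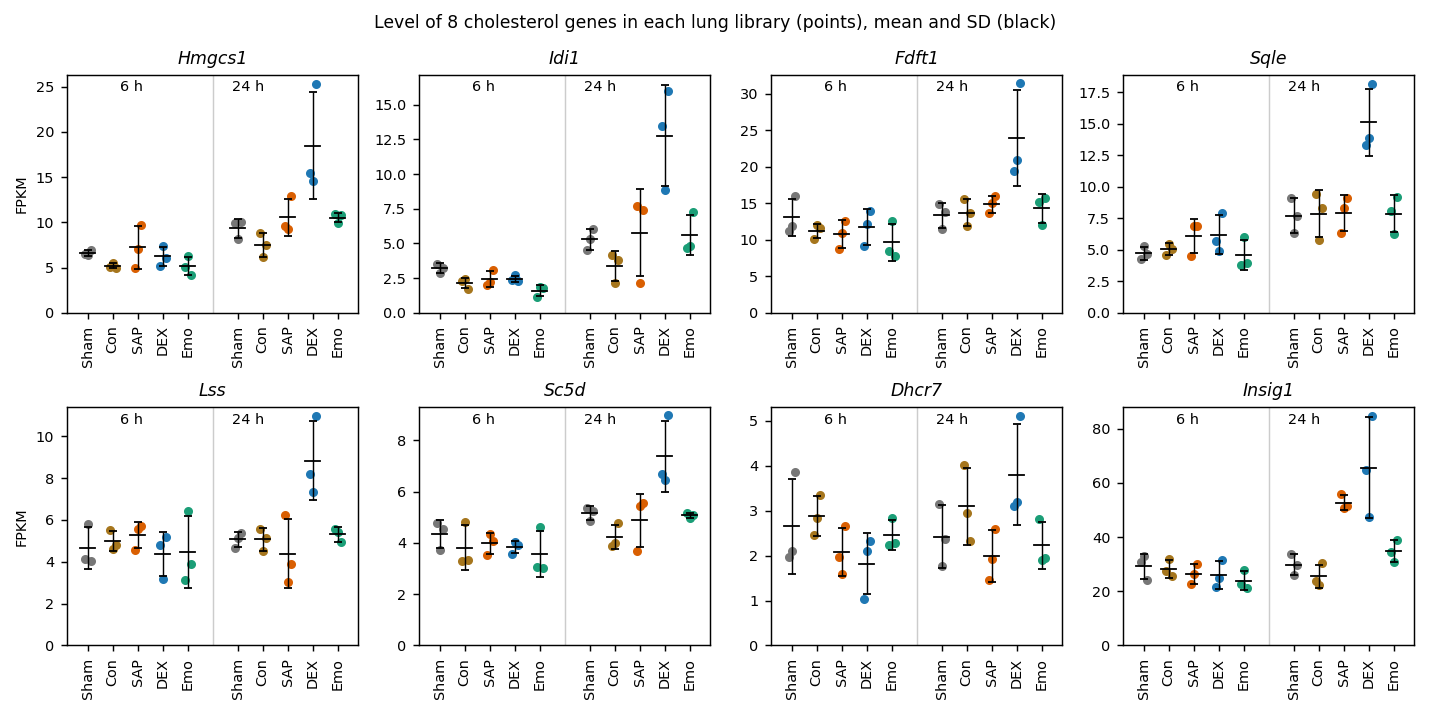
Level of each of the 8 genes in FPKM (y axis, starting at 0) in the 3 libraries of every group (x axis), 6 h on the left and 24 h on the right of each panel; points are libraries, the wide black tick is the mean and the bar is the SD. DEX-24h stands highest in every panel, and SAP-24h lies near it for Insig1 alone (52.6 against 65.6 FPKM).

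At 6 h no member of the set was called in any of 8 comparisons. A call means an adjusted p under 0.05 in the quasi-likelihood test of edgeR, adjusted by Benjamini-Hochberg over all 15934 genes. The share of all genes called was 0.27% in SAP-6h vs Sham-6h, 0.207% in SAP-6h vs Con-6h, 0% in Con-6h vs Sham-6h, 0.979% in DEX-6h vs SAP-6h, 0.0314% in Emo-6h vs SAP-6h, 2.88% in Emo-6h vs DEX-6h, 9.75% in DEX-6h vs Sham-6h and 3.26% in Emo-6h vs Sham-6h. DESeq2 called 0 of the 8 as well. Its number of calls over all genes is given below for the interaction of DEX vs Sham alone, so its other counts have no background. At an unadjusted p under 0.05, 2 of the 8 passed in Emo-6h vs Sham-6h, 1 each in SAP-6h vs Con-6h, Emo-6h vs SAP-6h and Emo-6h vs DEX-6h, and 0 in the other 4. How many of all genes passed this threshold is given below for some interaction terms alone. The other counts at an unadjusted p have no background to be read against.

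Idi1, the isomerase that makes dimethylallyl diphosphate, showed the lowest of these values. Its FPKM was 3.54, 2.84 and 3.24 in Sham-6h and 1.12, 1.85 and 1.79 in Emo-6h. The 2 groups did not overlap, but the log2 fold change of -0.98 ± 0.35 (SE) had an adjusted p of 0.101. The median log2 fold change of the 8 genes was -0.13 in DEX-6h vs Sham-6h and -0.26 in Emo-6h vs Sham-6h.

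At 24 h of SAP without a drug, Insig1 was up-regulated against Sham, and none of the 7 enzyme genes of the set was called. Some synthesis genes outside the set were called higher, as given below. Insig1 measured 55.78, 50.73 and 51.43 FPKM in SAP-24h against 33.56, 26.00 and 29.76 in Sham-24h, with no overlap. It rose 1.94-fold (log2 fold change 0.96 ± 0.17, adjusted p = 0.00203) in SAP-24h vs Sham-24h, where 12.4% of all genes were called and 6.8% were called higher. The 7 enzyme genes had log2 fold changes between -0.16 (Dhcr7) and 0.30 (Hmgcs1), and the median of the 8 was 0.22 against -0.03 over all genes. Insig1 remained called without each of the 6 libraries in turn (0.87 to 1.05), and it lost the call when the model held those 2 groups alone.

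Against the saline infusion, edgeR called 2 of the 8, DESeq2 called 3, and 4 passed an unadjusted p under 0.05. Against Sham each of these counts was 1, and the difference was not tested. In SAP-24h vs Con-24h, with 22.1% of all genes called, Insig1 rose by 1.18 ± 0.17 on the log2 scale (adjusted p = 0.000293). Hmgcs1, the synthase that forms HMG-CoA, measured 9.57, 9.21 and 12.90 FPKM in SAP-24h and 8.84, 6.17 and 7.46 in Con-24h. Its rise of 0.62 ± 0.21 (adjusted p = 0.0339) was lost without Con-24h replicate 2 (adjusted p = 0.156). Leaving out Con-24h replicate 2, Con-24h replicate 3, SAP-24h replicate 1 or SAP-24h replicate 3 left 1 of the 2 calls. Con-24h vs Sham-24h gave 0 calls among the 8 by edgeR, with 9.85% of all genes called, 0 by DESeq2, and 0 at an unadjusted p under 0.05.

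The SAP-24h libraries varied in some of the enzymes. Idi1 measured 7.72, 2.17 and 7.42 FPKM in the 3 SAP-24h libraries, and Lss, which closes squalene epoxide into lanosterol, measured 6.22, 3.03 and 3.88 FPKM, with replicate 1 highest. For Idi1, replicate 2 lay below all Sham-24h libraries (4.52, 5.28 and 6.04 FPKM), and the groups overlapped.

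Dexamethasone-treated rats at 24 h had the highest levels of the set. In DEX-24h vs Sham-24h, 7 of the 8 genes were up-regulated, where 6.97% of all genes were called and 2.7% were called higher. The median log2 fold change of the 8 was 0.94, against -0.01 over all genes. The FPKM groups did not overlap for 7 of the 8, all but Dhcr7, while 10.2% of all genes had DEX-24h libraries wholly above Sham-24h.

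Early in the pathway, Hmgcs1 measured 15.50, 14.60 and 25.30 FPKM in DEX-24h and 9.88, 8.16 and 10.04 in Sham-24h. It rose 2.02-fold (log2 fold change 1.02 ± 0.21, adjusted p = 0.00369). Idi1 measured 13.47, 8.85 and 16.02 FPKM in DEX-24h, each above the Sham-24h libraries, and rose 2.48-fold (1.31 ± 0.34, adjusted p = 0.0207).

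Fdft1, squalene synthase, commits farnesyl diphosphate to sterols. It measured 19.36, 20.86 and 31.38 FPKM in DEX-24h and 14.83, 11.44 and 13.75 in Sham-24h, a rise of 0.88 ± 0.19 on the log2 scale (adjusted p = 0.00662). Sqle, the epoxidase that adds the first oxygen to squalene, measured 13.28, 13.85 and 18.15 FPKM in DEX-24h and 9.08, 6.34 and 7.70 in Sham-24h, a rise of 1.01 ± 0.21 (adjusted p = 0.0038). Both genes kept apart from Sham-24h in each of the 3 DEX-24h libraries.

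Lss measured 8.21, 7.32 and 10.97 FPKM in DEX-24h and 4.68, 5.14 and 5.40 in Sham-24h, and rose by 0.83 ± 0.24 (adjusted p = 0.0384). Sc5d, the desaturase of the late pathway, measured 6.69, 6.45 and 8.97 FPKM in DEX-24h and 5.38, 4.87 and 5.24 in Sham-24h, and had the smallest of the called rises, 0.55 ± 0.16 (adjusted p = 0.034). Dhcr7, which makes cholesterol from 7-dehydrocholesterol, was not called (0.69 ± 0.31, adjusted p = 0.199). Its 3.11, 3.20 and 5.10 FPKM in DEX-24h overlapped the 3.14, 1.76 and 2.38 of Sham-24h.

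Insig1 measured 64.79, 47.39 and 84.61 FPKM in DEX-24h and rose 2.26-fold over Sham-24h (1.18 ± 0.17, adjusted p = 0.000332). Its DEX-24h libraries lay on both sides of the SAP-24h values, and DEX-24h vs SAP-24h gave 0.22 ± 0.17 (adjusted p = 0.471).

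Without DEX-24h replicate 3, 3 of the 8 were called in DEX-24h vs Sham-24h, and 3.14% of all genes. Hmgcs1 (0.77, adjusted p = 0.0338), Sqle (0.90, adjusted p = 0.026) and Insig1 (0.99, adjusted p = 0.00286) remained called, and all 3 were called without each of the 6 libraries in turn. Leaving out Sham-24h replicate 1 or replicate 2 left 4 of the 8. Requiring a 2-fold change as well left Idi1, Insig1, Hmgcs1 and Sqle.

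Promoters from RefSeq (GRCr8, 250 bases before to 50 after the start of the gene) were found for 6 of the 8 genes. They were searched on both strands for TCACNCCAC, a form of the sterol element that SREBP binds, and for CCAAT, the core of the motif of NF-Y, a frequent partner of SREBP; matches of the 2 motifs can share 1 base at most. Neither Sqle nor Fdft1 had an entry. CCAAT was in 5 of the 6, against 37.5% of 33469 promoters, and TCACNCCAC in none of the 6, against 1.12%. The 3 genes with rises above 1 in DEX-24h vs Sham-24h that have an entry, and Dhcr7, which was not called, are printed 5′ to 3′ on the strand of the gene. Capitals mark CCAAT or its complement ATTGG.
Hmgcs1, chr2:53382054-53382353, plus strand: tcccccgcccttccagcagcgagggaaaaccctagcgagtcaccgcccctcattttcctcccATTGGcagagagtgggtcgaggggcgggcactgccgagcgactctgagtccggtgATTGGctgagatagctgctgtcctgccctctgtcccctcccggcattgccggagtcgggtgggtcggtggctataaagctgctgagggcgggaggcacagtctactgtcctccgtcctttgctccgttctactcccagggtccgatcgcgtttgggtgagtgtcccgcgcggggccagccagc
Insig1, chr4:8057720-8058019, minus strand: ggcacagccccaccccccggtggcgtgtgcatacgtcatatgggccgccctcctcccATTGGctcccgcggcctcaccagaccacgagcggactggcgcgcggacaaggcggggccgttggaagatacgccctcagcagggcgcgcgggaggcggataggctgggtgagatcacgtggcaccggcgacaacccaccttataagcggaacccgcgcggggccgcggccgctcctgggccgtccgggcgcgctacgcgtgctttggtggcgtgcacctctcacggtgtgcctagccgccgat
Idi1, chr17:66547475-66547774, minus strand: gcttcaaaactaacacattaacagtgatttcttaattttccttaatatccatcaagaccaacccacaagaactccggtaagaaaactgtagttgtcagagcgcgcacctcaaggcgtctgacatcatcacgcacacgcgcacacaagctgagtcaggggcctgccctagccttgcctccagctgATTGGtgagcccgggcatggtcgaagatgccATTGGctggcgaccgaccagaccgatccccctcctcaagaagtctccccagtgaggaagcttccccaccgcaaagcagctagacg
Dhcr7, chr1:208444184-208444483, plus strand: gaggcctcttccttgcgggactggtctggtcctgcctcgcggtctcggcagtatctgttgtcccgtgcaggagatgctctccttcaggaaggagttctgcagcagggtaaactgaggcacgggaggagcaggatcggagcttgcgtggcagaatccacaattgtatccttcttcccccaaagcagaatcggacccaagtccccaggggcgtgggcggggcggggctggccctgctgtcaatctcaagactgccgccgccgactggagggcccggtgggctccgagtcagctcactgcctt
Hmgcs1 held ATTGG with its first base at -188 and at -133 from the start, Insig1 at -193, and Idi1 at -66 and -35. Dhcr7 held none. Of the 10 other synthesis genes with an entry 8 held CCAAT, and of 6 uptake genes 4. These are letters in a window and not measured sites, and the build of the promoters is later than that of the counts.

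Set against untreated pancreatitis, 4 of the 8 genes were higher with dexamethasone. In DEX-24h vs SAP-24h, 7.71% of all genes were called and 2.99% were called higher. Lss (0.90 ± 0.24, adjusted p = 0.0251), Sqle (0.85 ± 0.20, adjusted p = 0.0137), Hmgcs1 (0.72 ± 0.20, adjusted p = 0.0322) and Sc5d (0.51 ± 0.16, adjusted p = 0.0461) were up-regulated. Idi1 (1.04 ± 0.34, adjusted p = 0.0617), Fdft1 (0.59 ± 0.19, adjusted p = 0.0593) and Dhcr7 (0.85 ± 0.31, adjusted p = 0.0911) were not called, although their groups did not overlap. In all, 7 of the 8 had every DEX-24h library above every SAP-24h library, all but Insig1, compared with 16.4% of all genes.

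These 4 calls depended on which libraries were kept. Without DEX-24h replicate 3 none of the 8 was called (4.13% of all genes were), and without each of the 3 SAP-24h libraries 2 were. Sqle came nearest without DEX-24h replicate 3 (log2 fold change 0.71, adjusted p = 0.0736). With these 2 groups alone in the model 0 were called, while DESeq2 called 6, with no share of all genes to set beside either count.

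**Figure D2:**
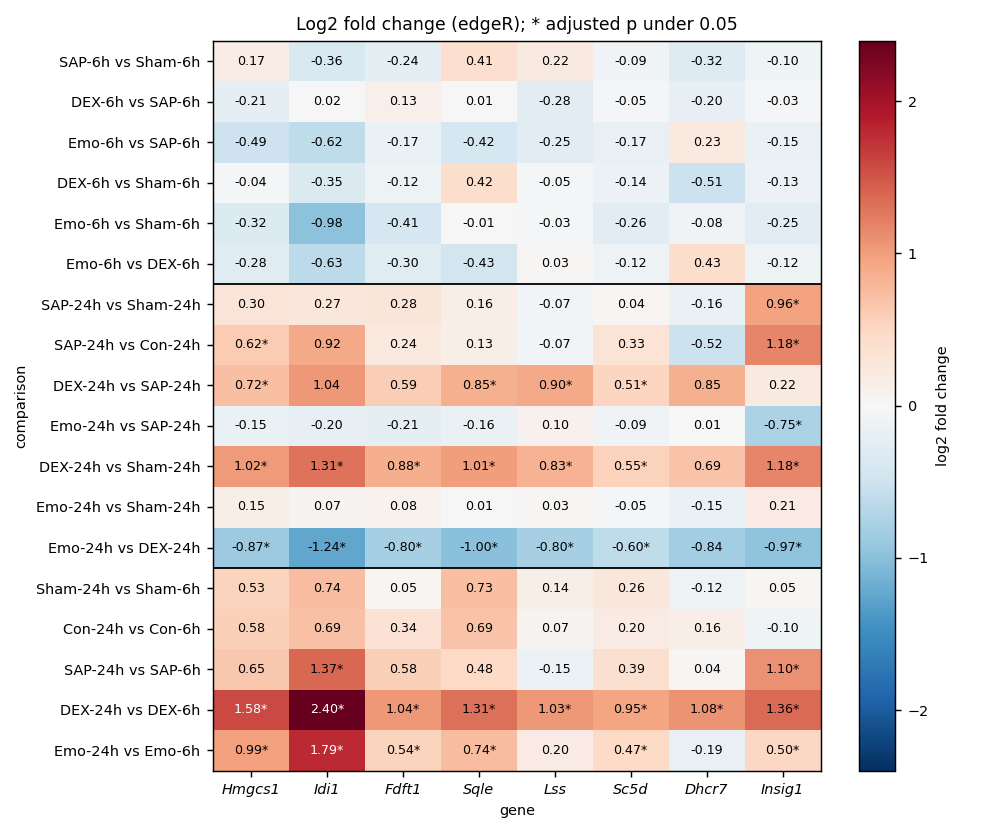
Log2 fold change by edgeR of each gene (x axis) by comparison (y axis), 6 h above, 24 h in the middle and 24 h against 6 h below; red is higher in the first group named and asterisks mark an adjusted p under 0.05. No 6 h cell carries an asterisk, the DEX-24h vs Sham-24h row carries 7, and the Emo-24h vs Sham-24h row none.

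With emodin at 24 h no gene of the set passed the test against Sham. Emo-24h vs Sham-24h gave log2 fold changes from -0.15 (Dhcr7) to 0.21 (Insig1), with standard errors of 0.16 to 0.34. edgeR called 0 of the 8, 0 passed an unadjusted p under 0.05 and DESeq2 called 0, but edgeR called 0% of all genes in this comparison, so the count has no background to be read against. Hmgcs1 measured 10.89, 9.95 and 10.76 FPKM in Emo-24h and overlapped the Sham-24h libraries.

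In Emo-24h vs SAP-24h, where 8.59% of all genes were called and 5.02% were called lower, Insig1 was down-regulated (-0.75 ± 0.17, adjusted p = 0.0123). It measured 34.63, 30.80 and 38.99 FPKM in Emo-24h, below all 3 SAP-24h libraries. The call was lost without Emo-24h replicate 1 or replicate 2 (adjusted p up to 0.0638), and with these 2 groups alone in the model. The enzymes had log2 fold changes from -0.21 (Fdft1) to 0.10 (Lss) and none was called.

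Emodin and dexamethasone, given on the same schedule, left the set at different levels at 24 h. In Emo-24h vs DEX-24h, 7 of the 8 genes were lower, with 8.89% of all genes called and 3.75% called lower. Sqle was 2.01-fold lower (adjusted p = 0.00352). The log2 fold changes were -1.24 ± 0.34 for Idi1 (adjusted p = 0.0246), -0.97 ± 0.17 for Insig1 (adjusted p = 0.00133) and -0.87 ± 0.20 for Hmgcs1 (adjusted p = 0.00927). They were -0.80 for both Lss and Fdft1 and -0.60 for Sc5d, and Dhcr7 was not called (-0.84 ± 0.31, adjusted p = 0.0925).

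All 8 genes had every Emo-24h library below every DEX-24h library, as did 10.8% of all genes. Sqle, for instance, measured 8.06, 6.28 and 9.18 FPKM with emodin and at least 13.28 with dexamethasone. Without DEX-24h replicate 3, Sqle and Insig1 were the 2 still called, and 4.0% of all genes. Without Emo-24h replicate 2, 3 were called, and without Emo-24h replicate 1, 4. The drugs differ in dose and route as well as in kind.

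The comparisons of DEX-24h with Sham-24h, SAP-24h and Emo-24h share the DEX-24h libraries, and their counts are not separate lines of evidence.

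Time within each treatment was compared next. In DEX-24h vs DEX-6h all 8 genes were up-regulated, among 25.9% of all genes called and 13.6% called higher, and all 8 groups were apart (21.0% of all genes were apart in this direction). The rises on the log2 scale ran from 0.95 ± 0.16 for Sc5d (adjusted p = 0.000276) to 2.40 ± 0.36 for Idi1 (5.27-fold, adjusted p = 0.000108), with a median of 1.20 against 0.00 over all genes. When DEX-24h replicate 3 was left out, 7 of the 8 and 20.1% of all genes were called, Dhcr7 (0.83) being lost. Dhcr7 was also lost without DEX-6h replicate 1 (0.80), and without each of the other libraries of these groups all 8 were called.

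Idi1 measured 2.37, 2.69 and 2.26 FPKM in DEX-6h, so that the lowest DEX-24h library (8.85 FPKM) was above the highest of them. Hmgcs1 went from 5.21, 7.39 and 6.08 FPKM at 6 h to at least 14.60 FPKM at 24 h (1.58 ± 0.21, adjusted p = 3.92e-05). Dhcr7 was called in this comparison and in no other, with 1.04, 2.10 and 2.32 FPKM in DEX-6h and a rise of 1.08 ± 0.31 (adjusted p = 0.013).

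In Emo-24h vs Emo-6h, 6 of the 8 were up-regulated, where 34.1% of all genes were called and 17.3% were called higher. Idi1 rose 3.46-fold (1.79 ± 0.35, adjusted p = 0.000647), Hmgcs1 1.99-fold (0.99 ± 0.21, adjusted p = 0.000988) and Sqle 1.67-fold (0.74 ± 0.21, adjusted p = 0.0081). Fdft1 (0.54), Insig1 (0.50) and Sc5d (0.47) also passed, and Lss (0.20 ± 0.24) and Dhcr7 (-0.19 ± 0.31) did not. Without Emo-24h replicate 3 or Emo-6h replicate 1, 2 were still called, and without Emo-6h replicate 3, 3 were. The share of all genes called in these fits is not given, so these counts have no background to be read against. A fold of at least 2 was reached by Idi1 alone.

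In SAP-24h vs SAP-6h, with 6.01% of all genes called and 3.17% called higher, Insig1 (1.10 ± 0.17, adjusted p = 0.00212) and Idi1 (1.37 ± 0.35, adjusted p = 0.0238) were up-regulated. Insig1 measured 22.78, 26.35 and 30.11 FPKM in SAP-6h and was called without each library in turn. Idi1 measured 2.01, 2.18 and 3.10 FPKM in SAP-6h and overlapped SAP-24h through replicate 2, and its call was lost without SAP-24h replicate 1 (adjusted p = 0.108), SAP-24h replicate 3, SAP-6h replicate 1 or SAP-6h replicate 2. Hmgcs1 (0.65, adjusted p = 0.0589) and Fdft1 (0.58, adjusted p = 0.0726) missed the threshold.

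Time was also followed in the Sham and Con rats, which received no taurocholate. By the study's account, saline in the duct gave Con rats a mild pancreatitis. In Sham-24h vs Sham-6h edgeR called 0 of the 8 and 0.992% of all genes, DESeq2 called 1, and 3 passed an unadjusted p under 0.05. Sqle gave the lowest adjusted p (0.73, adjusted p = 0.0695), with 4.24, 5.29 and 4.62 FPKM at 6 h and 6.34 or more at 24 h. For 4 of the 8 the Sham-24h libraries lay wholly above Sham-6h, as for 11.5% of all genes. In Con-24h vs Con-6h edgeR called 0 of the 8 and 0.0126% of all genes, DESeq2 called 0, and 2 passed an unadjusted p under 0.05.

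Interaction terms asked whether a treatment had another effect at 24 h than at 6 h. For DEX vs Sham, a term added after the data were seen, Insig1 was the 1 gene of the 8 that passed (difference of log2 fold changes 1.31 ± 0.24, adjusted p = 0.0182), among 0.351% of all genes called. All 8 estimates were positive, with a median of 1.02 against 0.00 over all genes. An unadjusted p under 0.05 was reached by 7 of the 8 and by 1680 of 15934 genes, and DESeq2 called 4 of the 8 higher and 98 of 22892 genes. Without DEX-24h replicate 3, DEX-6h replicate 1, Sham-24h replicate 2 or Sham-6h replicate 2 the term for DEX vs Sham called 0 of the 8, and 4 to 8 of all genes were called higher. With the first of these left out, 0.105% of all genes were called in either direction.

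For DEX vs SAP edgeR called 0 of the 8 and 0.169% of all genes, DESeq2 called 0, and 6 passed an unadjusted p under 0.05, as did 2167 of all 15934 genes. The estimates were again all positive, with a median of 0.88, and without SAP-24h replicate 1 edgeR called 1. For SAP vs Sham edgeR called 0 of the 8 and 0.0314% of all genes, and 1 passed an unadjusted p under 0.05, Insig1 (1.06, adjusted p = 0.128), which DESeq2 called. For Emo vs SAP edgeR called 0 of the 8 and 3.57% of all genes, DESeq2 called 0, and 1 passed an unadjusted p under 0.05. The terms for Emo vs DEX and SAP vs Con, also added after the data were seen, called 0 of the 8 by edgeR, with 0.0628% and 0% of all genes called. DESeq2 called 0 and 1 of the 8 in them, and 4 and 1 passed an unadjusted p under 0.05, as did 1584 and 2038 of all genes. With DEX-24h replicate 3 left out, the terms for DEX vs SAP and Emo vs DEX called 0 of the 8, with 0.0992% and 0.0248% of all genes called.

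Over the 30 libraries most of the 8 genes moved together. As a description, the 28 pairwise Pearson correlations of log2 CPM (counts scaled to library size) had a median of 0.784, from 0.271 for Insig1 and Dhcr7 to 0.909 for Hmgcs1 and Idi1. After the mean of each group was subtracted, the median was 0.443, with Hmgcs1 and Fdft1 highest at 0.789 and Lss and Dhcr7 lowest at -0.096. In the 27 libraries without DEX-24h it was 0.586, from -0.139 for Insig1 and Dhcr7 to 0.844 for Hmgcs1 and Idi1. There 15 of the 28 pairs were above 0.5, and no pair with Lss or Dhcr7 exceeded 0.375 (Idi1 and Lss). Over the 30 libraries as measured Dhcr7 had the lowest median r with the others (0.378), and with the group means subtracted Lss had (0.255, against 0.285 for Dhcr7). Libraries share their depth and composition across all pairs, and differences between groups enter the first of these medians.

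**Figure D3:**
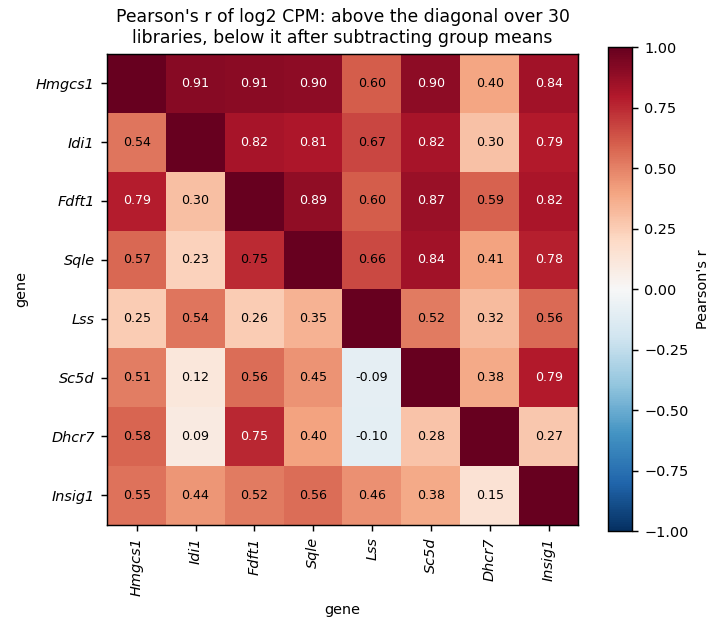
Pearson's r between each pair of the 8 genes (both axes) over 30 libraries on log2 CPM, above the diagonal as measured and below it after subtraction of the group means. Most cells above the diagonal are darker than those below, and above it the lowest value is that of Insig1 and Dhcr7 (0.271).

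The mean of the 8 standardised profiles was 1.954 in DEX-24h (1.504 to 2.697 over its libraries), 0.513 in SAP-24h, 0.231 in Emo-24h, 0.171 in Sham-24h and -0.034 in Con-24h. The 6 h groups lay between -0.875 (Emo-6h) and -0.356 (Sham-6h). Neighbouring groups in this order overlapped in their libraries, apart from DEX-24h, which lay above all others.

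**Figure D4:**
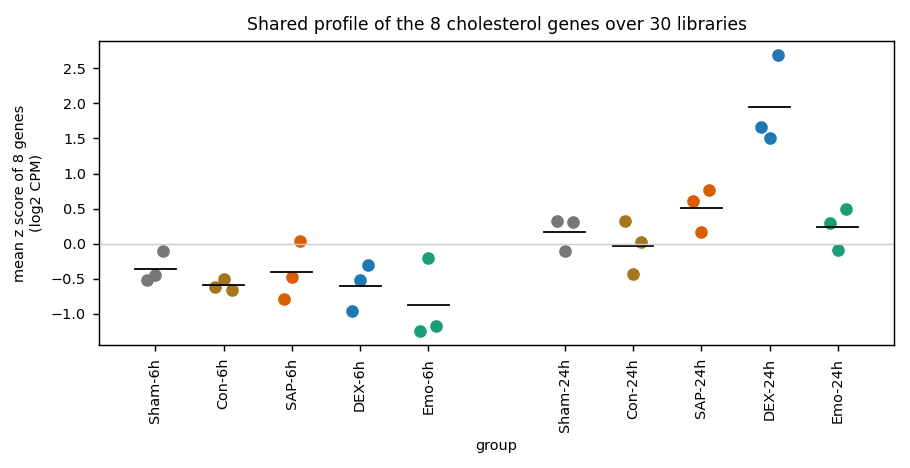
Mean z score of the 8 genes on log2 CPM (y axis) in each of the 30 libraries (points) by group (x axis), with lines at the group means. The DEX-24h libraries, from 1.504 to 2.697, lie above the highest SAP-24h library at 0.764, and no test was made on this score.

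Of 12343 other genes with a mean of at least 1 FPKM, the 10 most like this profile over 30 libraries included Msmo1 (r = 0.959), Cyp51 (0.881), Dstn (0.867), Stx3 (0.832), RGD1310769 (0.827), Spcs2 (0.821), Cd59 (0.818) and Ppp1r14c (0.814). Msmo1 and Cyp51 encode demethylating oxidases of the sterol nucleus. When group means were subtracted, 3 of the 10 stayed among the 10 most alike, Msmo1 (0.802) and Cyp51 (0.739) included.

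The other genes of cholesterol synthesis, 13 in number, gave 7 up-regulated genes in DEX-24h vs Sham-24h, where 6.97% of all genes were called and 2.70% were called higher, and a median log2 fold change of 0.91. They included Cyp51 (1.19 ± 0.18), Hsd17b7 (1.16 ± 0.21), Msmo1 (1.01 ± 0.14), Fdps (0.99 ± 0.14) and Acat2 (0.97 ± 0.25), with adjusted p from 0.000255 (Msmo1) to 0.0194 (Acat2). Mvk, Pmvk, Mvd, Ebp, Nsdhl and Tm7sf2 were not called and had values of 0.26 to 0.58. Without DEX-24h replicate 3, 5 of the 13 were called, Acat2 being among those lost. In Emo-24h vs DEX-24h the same 7 were lower, Msmo1 with a log2 fold change of -1.07 ± 0.14 (adjusted p = 0.000111). The share of all genes called lower in that comparison is given above with the 8 genes. Without DEX-24h replicate 3, 6 of the 13 and 4.0% of all genes were called there. In Emo-24h vs Sham-24h 0 of the 13 were called by edgeR, 0 by DESeq2 and 0 at an unadjusted p under 0.05, with 0% of all genes called by edgeR.

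In SAP-24h vs Sham-24h, 4 of the 13 were up-regulated, where 12.4% of all genes were called and 6.8% were called higher, among them Cyp51 (0.84 ± 0.17, adjusted p = 0.00432), Hsd17b7 (0.72 ± 0.21, adjusted p = 0.0268) and Fdps (0.56 ± 0.14, adjusted p = 0.0153). Cyp51 measured 18.2 ± 2.77 FPKM in SAP-24h, 11.2 ± 1.88 in Sham-24h and 24.8 ± 6.61 in DEX-24h (SD, n = 3). In Emo-24h vs SAP-24h, Cyp51 (-0.71) and Fdps (-0.60) were lower. Whether the enzymes of the set and these genes differ in their response to SAP was not tested.

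In DEX-24h vs SAP-24h, 1 of the 13 was called, Msmo1 (0.62 ± 0.14, adjusted p = 0.0099). That is near the share of all genes called in this comparison, given above. Without DEX-24h replicate 3 the adjusted p of Msmo1 was 0.0757, and 0 of the 13 and 4.13% of all genes were called.

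Among 6 genes of SREBP control, Srebf2, which encodes SREBP-2, was up-regulated in SAP-24h vs Sham-24h (0.45 ± 0.12, adjusted p = 0.0157) and in DEX-24h vs Sham-24h (0.49 ± 0.12, adjusted p = 0.0111). It measured 35.89, 38.29 and 40.79 FPKM in SAP-24h, 39.45, 39.53 and 46.86 in DEX-24h, 29.85, 28.18 and 33.65 in Sham-24h and 31.64, 29.61 and 33.55 in Emo-24h. The Con-24h libraries, at 35.83, 37.00 and 39.62 FPKM, overlapped SAP-24h and lay above Sham-24h. Srebf2 was not called in SAP-24h vs Con-24h (0.16 ± 0.12, adjusted p = 0.363) or in Con-24h vs Sham-24h (0.30 ± 0.12, adjusted p = 0.104). It was lower in Emo-24h vs SAP-24h (-0.43 ± 0.12, adjusted p = 0.0277) and in Emo-24h vs DEX-24h (-0.47 ± 0.12, adjusted p = 0.0138). Without single libraries these 4 adjusted p values reached 0.0708, 0.0637, 0.112 and 0.0726. With DEX-24h replicate 3 left out, 0 of the 6 were called in DEX-24h vs Sham-24h (3.14% of all genes) and in Emo-24h vs DEX-24h (4.0%).

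Scap was higher in SAP-24h vs Sham-24h (0.35 ± 0.12, adjusted p = 0.0485) and in Con-24h vs Sham-24h (0.52 ± 0.12, adjusted p = 0.0105). It measured 15.72, 16.47 and 14.47 FPKM in SAP-24h, below all Con-24h libraries (19.29, 20.18 and 17.80 FPKM), and was not called in SAP-24h vs Con-24h (-0.17 ± 0.12, adjusted p = 0.316). Srebf1, whose SREBP-1 products act mostly on fatty acid genes, was not called in these comparisons and measured 8.56 ± 2.11 FPKM (SD, n = 3) in SAP-24h, 9.06 ± 1.39 in DEX-24h and 9.50 ± 2.07 in Sham-24h.

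Of 10 uptake and transport genes, 9 were tested. Scarb1, the HDL receptor, was lower in DEX-24h vs Sham-24h (-0.79 ± 0.14, adjusted p = 0.00147) and DEX-24h vs SAP-24h (-0.83 ± 0.14, adjusted p = 0.00114). Stard4, a sterol carrier, was higher in SAP-24h vs Sham-24h (0.67 ± 0.21, adjusted p = 0.0411) and lower in Emo-24h vs SAP-24h (-0.91 ± 0.22, adjusted p = 0.0148). In all, 1 of the 9 was called higher and 1 lower in DEX-24h vs Sham-24h, and 1 higher and 2 lower in DEX-24h vs SAP-24h. In SAP-24h vs Sham-24h 2 were higher and 1 lower, and in Emo-24h vs SAP-24h 1 was higher and 2 lower. The shares of all genes called in these comparisons are given above. The uptake list had no common direction, with a median log2 fold change of 0.07 in DEX-24h vs Sham-24h.

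Among 9 genes of efflux, storage and oxysterols, Ch25h, which makes 25-hydroxycholesterol, an oxysterol that holds back SREBP processing, rose in SAP-24h vs Sham-24h (2.48 ± 0.46 on the log2 scale, adjusted p = 0.00229). Its level was 28.3 ± 18.6 FPKM in SAP-24h and 5.64 ± 1.07 in Sham-24h (SD, n = 3). It was lower in DEX-24h vs SAP-24h (-1.71 ± 0.45, adjusted p = 0.0219) and in Emo-24h vs SAP-24h (-1.95 ± 0.45, adjusted p = 0.0137). The call in DEX-24h vs SAP-24h was lost without DEX-24h replicate 1 (-1.72), DEX-24h replicate 3 (-1.52) or SAP-24h replicate 1 (-0.95, adjusted p = 0.207). The Ch25h values of SAP-24h against Sham-24h and Emo-24h rest on SAP-24h replicate 1 as well. Cyp7b1, which hydroxylates 25- and 27-hydroxycholesterol, was 3.87 ± 1.12 FPKM in DEX-24h and 0.627 ± 0.192 in SAP-24h (log2 fold change 2.54 ± 0.33, adjusted p = 0.000105). Abca1 and Abcg1, the efflux pumps, were not called in either comparison.

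Of 8 tested genes of fatty acid synthesis 0 were called in DEX-24h vs Sham-24h, where 6.97% of all genes were, and the median log2 fold change was 0.01. The difference from the cholesterol genes was not tested. Fads1 (-1.03 ± 0.32) and Fads2 (adjusted p = 0.0293), both desaturases, were lower in SAP-24h vs Sham-24h, and with single libraries left out they stayed called in 3 and 4 of 6 fits. DESeq2 called 1 of the 8 in DEX-24h vs Sham-24h and 2 passed an unadjusted p under 0.05. Fasn, fatty acid synthase, had a log2 fold change of 0.20 ± 0.26 there. At 6 h it measured 79.49, 67.24 and 104.60 FPKM in DEX-6h and 37.38, 38.06 and 43.49 in Sham-6h, with no overlap. In DEX-6h vs Sham-6h edgeR called 1 of the 8 and DESeq2 2, the share of all genes being given above. In DEX-6h vs SAP-6h both called 0.

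**Figure D5:**
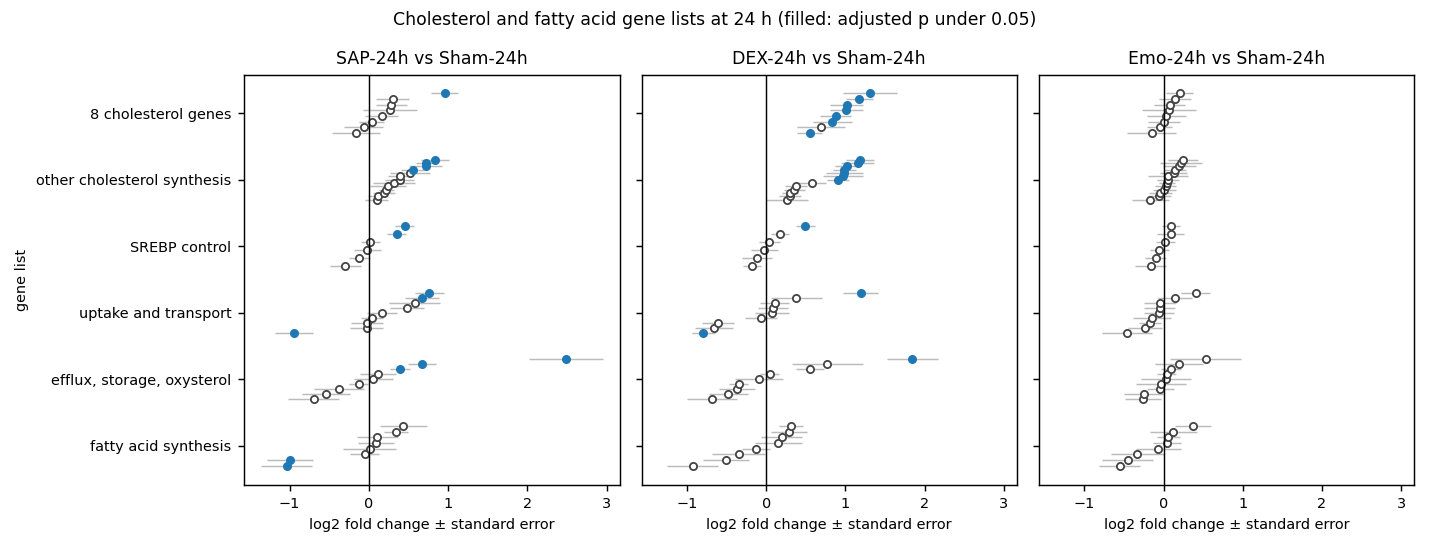
Log2 fold change with its standard error (x axis, the same in all panels) of each gene in 6 lists (y axis) at 24 h for SAP, DEX and Emo against Sham; filled points passed an adjusted p under 0.05. The 2 synthesis lists lie right of 0 for DEX-24h, 7 genes of each being filled, and no point is filled for Emo-24h.

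Cell type markers were followed beside these results, since fewer cells of a type and less RNA per cell cannot be told apart in whole lung. In DEX-24h vs Sham-24h, 1 of 8 alveolar type 2 markers was called, Sftpb, surfactant protein B (1.23 ± 0.24, adjusted p = 0.00281), and their summed level was 26900 to 38400 FPKM in DEX-24h and 28500 to 48200 in SAP-24h. None of 6 alveolar type 1 and none of 6 endothelial markers was called in DEX-24h vs Sham-24h. The summed neutrophil markers ranged over 198 to 9240 FPKM in the Sham-24h libraries and over 4430 to 16300 with SAP-24h. With the drugs they ranged over 1010 to 2970 (DEX-24h) and 4260 to 6590 (Emo-24h). Fibroblast markers summed to 332 to 521 FPKM in Sham-24h and 167 to 229 in DEX-24h, with Col3a1 and Lum lower. Of 7 neutrophil markers Ngp was lower in DEX-24h vs Sham-24h, and of 6 macrophage markers Marco was higher, with at most 0.86 FPKM and 0 in 15 libraries. Mpo was at 0 in 1 library. None of the heart muscle, adipocyte or proliferation markers was called in DEX-24h vs Sham-24h.

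Markers were also called in the other comparisons. In SAP-24h vs Sham-24h, where Insig1 rose, 3 of 6 fibroblast markers were lower (Col1a2, Col3a1 and Lum) and Pdgfra was higher. In the same comparison 2 of 6 alveolar type 1 markers (Akap5 and Aqp5) and 1 of 6 endothelial markers (Kdr) were lower, and Sftpb and Marco were higher. In SAP-24h vs Con-24h all 7 neutrophil markers were higher, as were Pck1 of 6 adipocyte markers, Pdgfra and Marco. In that comparison Col1a2, Col3a1, Ager, Aqp5, Kdr and Csf1r, the macrophage colony-stimulating factor receptor, were lower. From 6 to 24 h, 4 of 6 fibroblast markers were lower in each of the SAP, DEX and Emo groups, and Dcn was higher in Emo. The endothelial marker Cldn5 was lower in SAP-24h vs SAP-6h, the 1 other marker called there. Of 6 endothelial markers 2 were higher and 3 lower in DEX-24h vs DEX-6h, and 2 higher and 2 lower in Emo-24h vs Emo-6h, where 4 of 6 proliferation markers were also lower. Akap5 and Lamp3 were higher in both of these comparisons. Marco was higher and Ngp and Birc5 were lower in DEX-24h vs DEX-6h, and Ager, Napsa and Cd68 were lower in Emo-24h vs Emo-6h. In DEX-24h vs SAP-24h Kdr was higher, and Ngp and Pdgfra were lower. In Emo-24h vs SAP-24h Kdr and Lum were higher, and Sftpd and Pdgfra lower. In Emo-24h vs DEX-24h Lum was higher, and Hopx, Sftpb and Cldn5 were lower. The part of these shifts in the cholesterol results was not tested.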

How the data were processed

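Per the study's methods, the authors clipped and quality-filtered paired reads, mapped them to the Ensembl rat genome (rat_ensembl_v6) with TopHat2 allowing mismatches, and deposited read counts per gene, not normalized, and FPKM per gene, scaled by the authors for length and depth. The counting tool and its strand setting are not given in the sources used here. FPKM was used for levels only. Counts were tested with edgeR 4.0.16 (quasi-likelihood, TMM, filterByExpr with at least 10 reads and 15 in total) in 1 model of 10 groups and 30 libraries, with 20 residual degrees of freedom and Benjamini-Hochberg adjustment over 15934 genes; the script was tested on simulated data. A call is an adjusted p under 0.05, with no limit on the fold; a limit of 2-fold, as the study used, was an alternative. The other alternatives were DESeq2 1.42.0, RLE scaling, no filter, the compared groups alone, a replicate block, and each library left out. Likeness used Pearson's r on log2 CPM with the mean standardised profile of the 8 genes.

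The 8 genes, the pathway lists and the marker lists were chosen with earlier results of these data known. Named were the 8 genes, Srebf1, Srebf2, other list genes called in a comparison described, markers beside a result, and the most alike genes; some genes under this rule are counted but not reported here by name. Elovl6 and Tsc22d3 have more than 1 row each and were not used; Scd was matched as Scd1. Standard errors were taken from the fold change and its F statistic.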

Additional observations from a re-analysis of the deposited data

Results flagged for a closer look

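The effect of DEX vs Sham differed between 24 and 6 h, by an interaction term in edgeR added after the data were seen, for Insig1 (difference of log2 fold changes 1.31, adjusted p = 0.0182), Msmo1 (1.19, adjusted p = 0.00814) and Cyp51 (1.14, adjusted p = 0.0417). The effect of Emo vs SAP differed between 24 and 6 h for Fdps, farnesyl diphosphate synthase (-0.75, adjusted p = 0.0434), and for Nr1h2, the oxysterol receptor LXR beta (-0.71, adjusted p = 0.0344). Without DEX-24h replicate 3 the terms for Insig1 and Cyp51 (0.95) lost their calls and that for Msmo1 kept it (1.06). With single libraries left out, Cyp51 stayed called in 4 of 12 fits, Insig1 in 8, Msmo1 in 12, Fdps in 4 and Nr1h2 in 6. With all libraries each term passed the threshold of 0.05.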

How the results depend on the processing

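None of the 39 called fold changes of the 8 genes reversed. Without 1 library 170 of 240 values kept their call and 70 lost it, and under the 5 alternatives other than a fold limit 179 of 195 kept it and 16 lost it; of the other list genes (127 calls) 230 of 786 and 94 of 635 lost it. Without single libraries the number of the 8 genes called ranged from 1 to 3 in SAP-24h vs Con-24h, 0 to 4 in DEX-24h vs SAP-24h, 0 to 1 in Emo-24h vs SAP-24h, 2 to 6 in Emo-24h vs DEX-24h, 3 to 7 in DEX-24h vs Sham-24h, 1 to 3 in SAP-24h vs SAP-6h, 7 to 8 in DEX-24h vs DEX-6h, 2 to 6 in Emo-24h vs Emo-6h, and 0 to 1 in the interaction terms of DEX vs SAP, DEX vs Sham and SAP vs Con; the other counts did not move. With the compared groups alone it was 0 in SAP-24h vs Sham-24h, 1 in SAP-24h vs Con-24h, 0 in DEX-24h vs SAP-24h, 0 in Emo-24h vs SAP-24h and 1 in SAP-24h vs SAP-6h. With a 2-fold limit it was 0 in SAP-24h vs Sham-24h, 1 in SAP-24h vs Con-24h, 0 in DEX-24h vs SAP-24h, 0 in Emo-24h vs SAP-24h, 2 in Emo-24h vs DEX-24h, 4 in DEX-24h vs Sham-24h and 1 in Emo-24h vs Emo-6h. In DEX-24h vs DEX-6h Sc5d (log2 fold change 0.95) missed that limit. With an unadjusted p under 0.05 and that limit the number called was the same, except 1 in DEX-24h vs SAP-24h, and 1, 3, 4, 1 and 1 in the interaction terms of SAP vs Sham, DEX vs SAP, DEX vs Sham, Emo vs DEX and SAP vs Con. DESeq2 gave 1 in Sham-24h vs Sham-6h, 4 in SAP-24h vs SAP-6h, and 1, 4 and 1 in the interaction terms of SAP vs Sham, DEX vs Sham and SAP vs Con. Of the 10 most alike genes 3 stayed on deviations from the group means. The cause of these moves was not tested. The share of all genes is given for the fits without DEX-24h replicate 3 and, in part, for the term of DEX vs Sham. Counts from other fits, and those with a fold limit, have no background to be read against.

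Replicate numbers do not pair the libraries: the median correlation of same-numbered deviations was -0.00648 (-0.363 to 0.359 over 135 pairs), and 8 of 30 libraries were closest to their own number. With the replicate block Lss lost its call in Emo-24h vs DEX-24h (-0.80) and DEX-24h vs Sham-24h (0.83), so that both counts were 6. With 3 libraries a group, standard errors of 0.16 to 0.36 limit what could be seen.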
